A study of Mus musculus with 24 samples.

Results

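The subject here is the total RNA of the contused mouse spinal cord on day post-injury (dpi) 10 against dpi 2, the shift of the whole cord from the acute to the subacute phase of spinal cord injury (SCI). It rests on 6 of the 24 libraries of the series, the 3 total RNA libraries of dpi 2 and the 3 of dpi 10, chosen by their sample labels. All mice, the naive controls included, were OL-Ribotag mice of the genotype plp-cre;rpl22HA, in which tamoxifen-activated Cre switches on HA-tagged ribosomal protein RPL22 in mature oligodendrocytes (OLs). The injury was a moderate contusion at T9 with 50 kdyn. The labels give female mice of 10 to 12 weeks, while the study's methods give a younger age at injury and a later age for the naive and dpi 42 animals, so naive levels are set beside dpi 2 and dpi 10 with age not matched. Of the dpi 42 libraries, 1 of the 3 counted as total RNA carries labels that conflict on its kind of RNA. Each library came from tissue of 2 mice pooled, and the same pool also gave an OL library of RNA bound to the tagged ribosomes. The total RNA libraries do not depend on the tag, since they sample the lysate before the HA pull-down, so every cell type in the tissue contributes. In such bulk samples, fewer cells of a type and less RNA per cell cannot be told apart.

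A contusion tears vessels and kills neurons and glia at the impact site, and the first days bring bleeding, influx of neutrophils and monocytes, swelling, and proliferation of microglia, astrocytes and progenitors. In the following weeks phagocytes clear lipid-rich myelin debris through lysosomes and export its cholesterol, astrocytes wall off the lesion, and fibroblasts lay down collagen. OL progenitors meanwhile divide and mature into new myelin-forming cells.

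The dpi 2 libraries held 25840127 to 27753951 counts on genes (median 26058954) and the dpi 10 libraries 27135366 to 28097504 (median 27643104). Levels are given as CPM, the counts of a gene scaled to a common library size after TMM scaling, a level at which 3 counts correspond to 0.084 to 0.0907 CPM. Markers of spinal cord tissue were present in all 6 libraries. Snap25 of neuronal synapses lay at 1648, 1287 and 1841 CPM on dpi 2 and 1573, 1408 and 1734 CPM on dpi 10, and Mbp of myelin at 9232, 10242 and 9843 and 10849, 12088 and 11726 CPM. Chat of motor neurons was at 8.68, 5.71 and 12.97 and 11.6, 9.72 and 14.5 CPM. The neutrophil marker Ly6g had at most 0.344 CPM in any of the 6 libraries. The dpi 2 libraries were less alike than the dpi 10 libraries, with Pearson r of log2 CPM of 0.956 to 0.975 between pairs against 0.983 to 0.987. On the first 2 principal components of the 6 libraries, the first (41.6% of the variance) placed the dpi 2 libraries at -61.4 to -27.4 and the dpi 10 libraries at 46.5 to 48.0, while the second (24%) spread the dpi 2 libraries from -65.1 to 60.1. Library 2 of dpi 2 held 2604 counts on 4 Y-linked genes, which goes against its label of female mice, and the other total RNA libraries held at most 13. The OL library from the same pool as library 2 held 2414 such counts, and no fit left out both. Counts and calls are therefore given without total RNA library 2 of dpi 2 where leaving it out ends a call or moves a count by over 1.5 times.

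Of 17167 genes tested, 568 (3.31%) were higher and 778 (4.53%) lower on dpi 10 at an adjusted p under 0.05. With the additional limit of a log2 fold change past 1, 184 genes (1.07%) were upregulated and 166 (0.967%) downregulated, with median log2 fold changes of 1.52 and -1.61. The 3 libraries of dpi 10 lay outside the range of the 3 of dpi 2 for 183 of the 184 and for all 166. Such separation largely follows from passing these limits, so it is no further support, and its share over all genes was not counted. Over all tested genes the median log2 fold change was 0.04. These p-values rest on 3 tissue pools a group, but not on the spread of the total RNA libraries alone. The test shared its estimate of spread over all 24 libraries, OL libraries included, and by count of genes it was the stricter choice. Single genes went both ways. The adjusted p of Aqp4 was 0.422 here and 4.51e-07 in the 12 total RNA libraries alone, and that of Col2a1 5.24e-08 and 4.47e-07. In the 18 libraries without dpi 42, OL libraries included, the adjusted p of Aqp4 was 0.413, and in the 6 compared libraries alone 9.93e-07. For Col2a1 these were 2.51e-07 and 1.76e-07. The cause of such shifts was not tested. Fitted on the 12 total RNA libraries alone, the counts were 1695 higher (9.97% of 17007 genes) and 1903 lower (11.2%), and 175 of the 184 upregulated and 165 of the 166 downregulated genes were called past 1 there as well. Without library 2 of dpi 2, 323 genes were higher and 472 lower. Libraries of dpi 10 mattered too, with 345 and 351 genes higher without library 1 or 2 and 478, 491 and 495 lower without library 1, 2 or 3, and 110 downregulated past 1 without library 1.

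**Figure D1:**
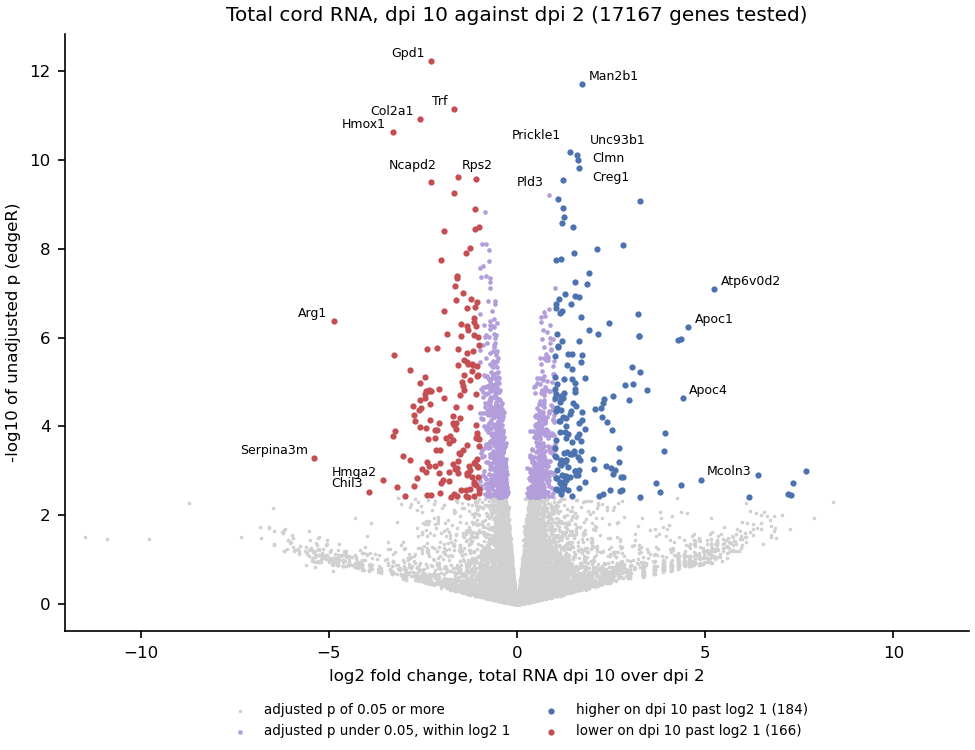
Each point is 1 of 17167 genes, with the log2 fold change of total RNA on dpi 10 over dpi 2 on the horizontal axis and the -log10 of the unadjusted edgeR p on the vertical axis. The 184 blue and 166 red genes passed an adjusted p of 0.05 and a log2 fold change of 1 in either direction, and the 3 grey points near -10 are Y-linked genes read in a single dpi 2 library.

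The upregulated genes with the smallest p were led by lysosomal proteins. Man2b1, the lysosomal alpha-mannosidase, lay at 65.1, 59.3 and 83.1 CPM on dpi 2 and 208, 268 and 216 CPM on dpi 10 (log2 fold change 1.74, SE 0.118, adjusted p = 1.71e-08). Creg1, a glycoprotein of the endosome and lysosome, went from 62.5, 61.8 and 48.9 to 177, 203 and 165 CPM (1.65, adjusted p = 2.99e-07). Unc93b1, which carries nucleic-acid sensing Toll-like receptors to endolysosomes, and Pld3, a lysosomal exonuclease, had log2 fold changes of 1.59 and 1.21 (adjusted p = 1.90e-07 and 3.96e-07). For each of these 4 genes the lowest dpi 10 library was above the highest dpi 2 library, which the rule that named them required. The other genes in this group, the planar polarity gene Prickle1 and the calponin-domain gene Clmn, had 1.41 and 1.62 (adjusted p = 1.88e-07 and 2.11e-07). Both stood higher in naive cord (41.6 ± 1.15 and 77.8 ± 9.67 CPM, mean ± SD, n = 3) than on dpi 2 (17.2 ± 1.56 and 22.2 ± 1.80 CPM).

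Among the downregulated genes with the smallest p, Gpd1, the cytosolic glycerol-3-phosphate dehydrogenase, was at 727, 744 and 714 CPM on dpi 2 and 146, 140.1 and 165 CPM on dpi 10 (-2.28, SE 0.145, adjusted p = 1.02e-08). Trf, the iron carrier transferrin, was at 643, 658 and 597 and 204, 190.0 and 199.6 CPM (-1.68, adjusted p = 4.18e-08). Hmox1, the haem-degrading enzyme haem oxygenase 1, was at 595, 631 and 425 and 53.01, 66.9 and 46.9 CPM (-3.31, SE 0.256, adjusted p = 8.13e-08), against 6.36 ± 1.16 CPM in naive cord. The dpi 2 and dpi 10 libraries did not overlap for any of these genes, again by the rule that named them. Col2a1, a cartilage collagen, Ncapd2, a condensin subunit that compacts chromosomes, and Rps2 of the small ribosomal subunit fell by 2.57, 1.57 and 1.09 on the log2 scale (adjusted p = 5.24e-08, 3.96e-07 and 3.96e-07).

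Some genes were close to absent at one of the time points. Atp6v0d2, a proton pump subunit of osteoclasts and macrophages, was at 0.812, 0.897 and 1.48 CPM on dpi 2 and 38.5, 51.4 and 31.2 CPM on dpi 10 (5.24, SE 0.582, adjusted p = 2.66e-05). Apoc1 and Apoc4, small apolipoproteins encoded beside Apoe, were at 1.54, 1.47 and 2.57 and 0.140, 0.299 and 0.363 CPM on dpi 2 and at 40.3, 41.2 and 49.3 and 4.45, 8.25 and 4.42 CPM on dpi 10 (adjusted p = 1.02e-04 and 0.00129). Arg1, the arginase of alternatively activated macrophages, went the other way, from 106, 146 and 90.96 to 3.29, 5.68 and 2.67 CPM (-4.88, SE 0.644, adjusted p = 8.71e-05). Its naive level was 0.214 ± 0.0946 CPM and that of Atp6v0d2 was 0 in all 3 naive libraries. Weaker calls of this kind were Mcoln3, a lysosomal cation channel (4.88, adjusted p = 0.0261), Serpina3m, a protease inhibitor (-5.39, 0.0121), Hmga2, a chromatin protein of growing cells (-3.55, 0.0264), and Chil3, a secreted chitinase-like protein of macrophages (-3.92, 0.0407). The adjusted p of Mcoln3 was 0.0591 to 0.109 without any single library other than library 1 of dpi 2, that of Hmga2 0.0541 to 0.132 without any other than library 3 of dpi 2, and that of Chil3 0.0600 to 0.177 without any of the 6. Serpina3m lost its call without library 2 of dpi 2 (0.0571) and without library 2 or 3 of dpi 10 (0.0690 and 0.0666).

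**Figure D2:**
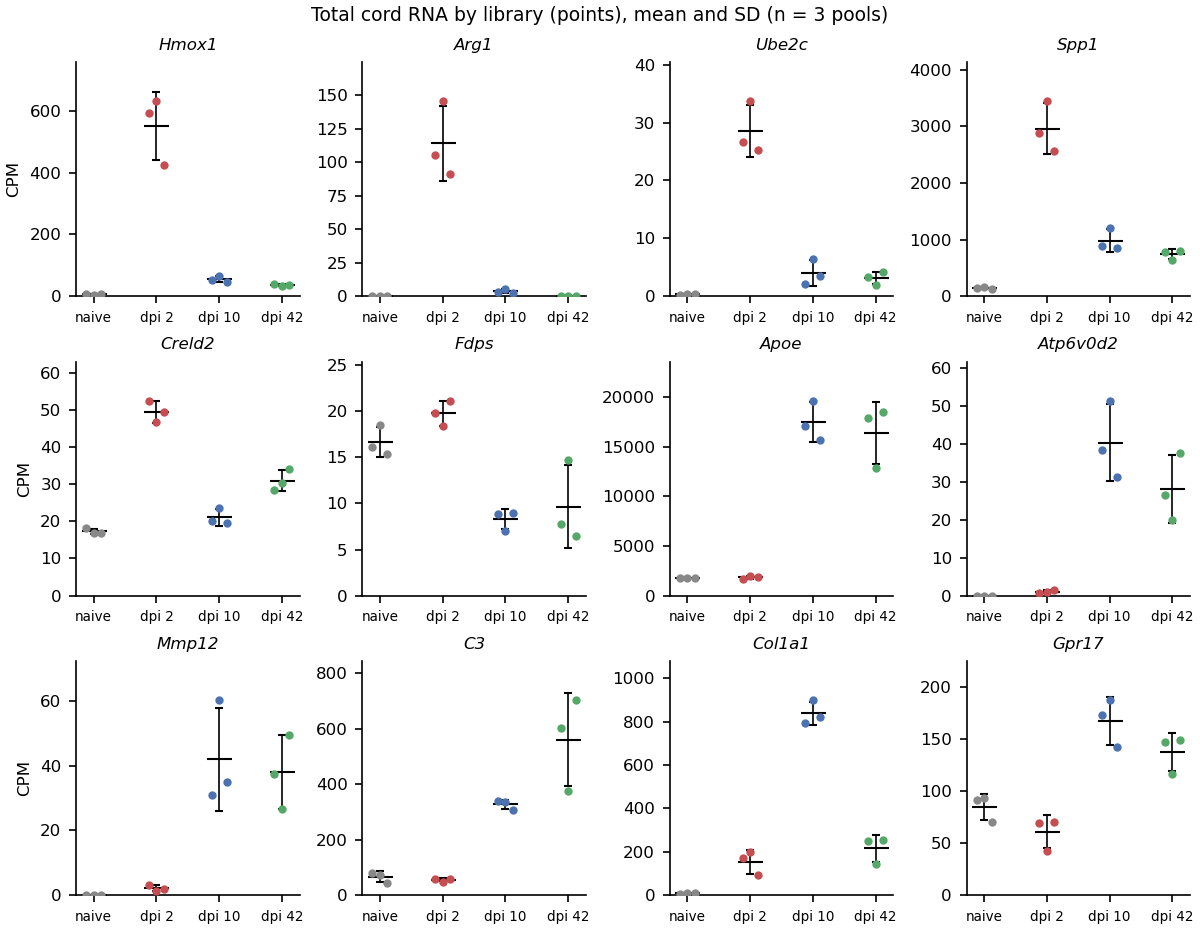
Points are single total RNA libraries in CPM on linear axes from 0, bars show mean and SD (n = 3 pools) for naive cord and dpi 2, 10 and 42, where 1 dpi 42 library has conflicting labels. The genes in the upper row and Creld2 and Fdps had all dpi 2 libraries above all dpi 10 libraries, and the 6 others had all dpi 10 libraries above all dpi 2 libraries.

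Genes were then read by lists of pathways and cell type markers, each described by how many of its tested members passed an adjusted p of 0.05 and by its median log2 fold change. Over all genes tested, 3.31% passed as higher and 4.53% as lower, or 9.97% and 11.2% in the 12 total RNA libraries alone. The lists and their members were chosen with earlier results of these data known, so a share above these is not independent support. Of the broad groups, cell cycle genes, cholesterol synthesis enzymes, chaperones and ribosomal proteins moved down, and lysosomal, lipid-handling and collagen genes moved up.

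**Figure D3:**
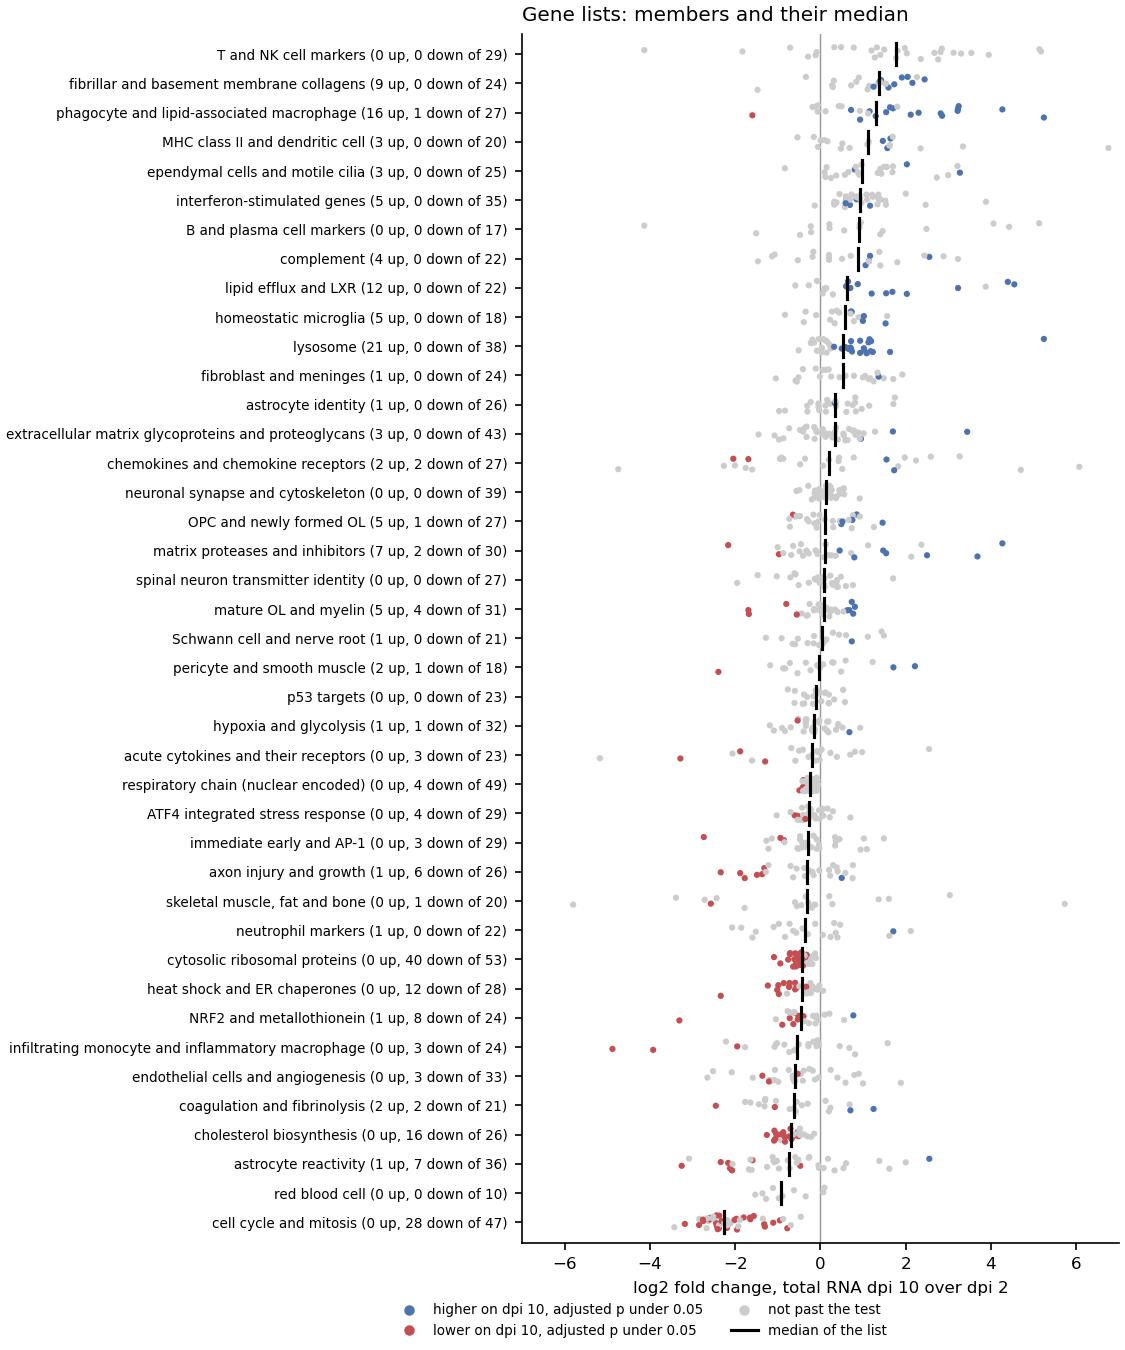
Every dot is a list member placed by its log2 fold change of dpi 10 over dpi 2, coloured where its adjusted p was under 0.05, and the black bar is the median of the list. Beside each name stand the members called up and down of those tested, from 28 down of 47 in the cell cycle list to 16 up of 27 in the phagocyte list.

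For 4 of these lists short promoter motifs are textbook knowledge, and the upstream sequences of members that passed the test are shown to let the motifs be seen. The sequences are the 150 bases before the start site in RefSeq, build GRCm38.p6, 5′ to 3′ on the strand of the gene, lower case with motif letters in capitals on either strand. They were chosen after the values were seen, as the members with the largest change among those with a motif, no annotated exon in the window and a RefSeq entry. CCAAT, the site of the factor NF-Y, reads ATTGG on the other strand and was in 28 of 39 cell cycle members and 15 of 18 cholesterol synthesis members with an entry, against 24.5% of 32851 promoters. Bub1b and Top2a are a mitotic checkpoint kinase and a topoisomerase, Mvk and Mvd enzymes of the mevalonate pathway. The endoplasmic reticulum (ER) stress element, searched on both strands as CCAAT followed after any 9 bases by CCACG and so overlapping the first motif, was in 6 of 23 chaperone list members against 0.0822% of promoters. Creld2 and Canx are ER proteins. CACGTG, the core of the site read by TFEB and related factors and the same on both strands, was in 9 of 31 lysosome members against 4.30% of promoters, 4 times in Lamp1, a lysosomal membrane protein. The member counts are of genes with a match in any of their promoters, while the shares are of single promoters. By single promoters CCAAT was in 30 of 41 for cell cycle and 15 of 22 for cholesterol synthesis. The ER stress element was then in 6 of 29 for chaperones and CACGTG in 9 of 36 for the lysosome. A match is a run of letters and was not tested as a binding site.
Top2a, chr11:99024190-99024339, minus strand: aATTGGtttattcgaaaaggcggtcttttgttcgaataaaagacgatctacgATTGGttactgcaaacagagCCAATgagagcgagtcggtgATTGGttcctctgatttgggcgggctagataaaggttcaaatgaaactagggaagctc
Bub1b, chr2:118598061-118598210, plus strand: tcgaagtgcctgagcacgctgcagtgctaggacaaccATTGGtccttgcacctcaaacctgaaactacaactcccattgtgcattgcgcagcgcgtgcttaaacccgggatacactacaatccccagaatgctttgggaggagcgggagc
Mvk, chr5:114444119-114444268, plus strand: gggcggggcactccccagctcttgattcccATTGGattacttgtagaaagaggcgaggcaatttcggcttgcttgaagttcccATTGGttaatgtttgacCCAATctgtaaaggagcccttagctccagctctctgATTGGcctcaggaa
Mvd, chr8:122443423-122443572, minus strand: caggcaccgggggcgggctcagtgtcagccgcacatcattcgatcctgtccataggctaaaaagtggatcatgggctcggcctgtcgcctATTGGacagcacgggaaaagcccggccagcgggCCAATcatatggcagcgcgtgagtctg
Creld2, chr15:88819496-88819645, plus strand: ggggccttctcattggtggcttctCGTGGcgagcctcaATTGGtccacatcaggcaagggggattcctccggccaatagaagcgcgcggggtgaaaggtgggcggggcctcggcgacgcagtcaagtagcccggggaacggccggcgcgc
Canx, chr11:50325674-50325823, minus strand: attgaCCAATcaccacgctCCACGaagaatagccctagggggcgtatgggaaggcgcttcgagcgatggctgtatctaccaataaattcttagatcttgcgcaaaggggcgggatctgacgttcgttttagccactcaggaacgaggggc
Lamp1, chr8:13159011-13159160, plus strand: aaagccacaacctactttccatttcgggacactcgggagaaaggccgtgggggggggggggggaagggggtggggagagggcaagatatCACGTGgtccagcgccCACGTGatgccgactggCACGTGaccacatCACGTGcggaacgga

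Genes of dividing cells were lower on dpi 10 across the whole list. All 47 tested members of the cell cycle and mitosis list had a log2 fold change below 0 (-3.43 to -0.46, median -2.25), 28 were downregulated, 26 of them past 1. Their summed level was 959 to 1047 CPM on dpi 2, 276 to 308 CPM on dpi 10 and 156 to 161 CPM in naive cord. Ube2c, which helps destroy mitotic cyclins, stood at 26.6, 33.7 and 25.2 CPM on dpi 2 and 2.05, 6.37 and 3.47 CPM on dpi 10 (-2.84, SE 0.468, adjusted p = 4.92e-04). Cdca8, a subunit of the chromosomal passenger complex, was at 13.7, 15.9 and 23.04 and 3.65, 2.45 and 1.69 CPM (-2.75, adjusted p = 0.00173). Neither gene had a dpi 10 library within the dpi 2 range. Aurkb, the kinase of that complex, had -3.18 (adjusted p = 0.0343, 0.0505 to 0.151 without any single library). Top2a and Bub1b of the sequences above had log2 fold changes of -2.43 (adjusted p = 0.00383) and -2.45 (adjusted p = 0.00130). The fit of the 12 total RNA libraries alone called 45 members lower.

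Most phagocyte genes rose, with an exception. Of 27 tested members of the phagocyte and lipid-associated macrophage list, 16 were upregulated, 14 of them past 1, and 1 was downregulated, with a median of 1.30. The summed level of the list was 10930 to 13210 CPM on dpi 2 and 30280 to 39260 CPM on dpi 10, and 9002 to 11260 and 14540 to 19600 CPM without its member Apoe. Mmp12, the elastase of macrophages, was at 3.19, 1.41 and 1.90 CPM on dpi 2 and 30.8, 60.2 and 34.8 CPM on dpi 10 (4.27, SE 0.604, adjusted p = 1.58e-04). Ms4a7, a membrane protein of macrophages, was at 7.42, 4.76 and 3.54 and 48.6, 55.3 and 45.3 CPM (3.25, adjusted p = 1.44e-04). The dpi 10 libraries were higher without overlap for both, as for Atp6v0d2 above. The exception was Spp1, the secreted phosphoprotein osteopontin, at 2886, 3446 and 2558 CPM on dpi 2 and 881, 1209 and 853 CPM on dpi 10 (-1.59, SE 0.191, adjusted p = 1.71e-05). Its dpi 10 libraries still lay above the naive level of 142 ± 18.6 CPM.

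Of 38 tested lysosomal genes, 5 of whose called members (Atp6v0d2, Cd68, Ctsb, Ctsd and Ctss) are also on the phagocyte list, 21 were upregulated, 10 of them past 1, and 31 had a log2 fold change above 0 (median 0.54). Hexa, a subunit of the hexosaminidase that breaks down gangliosides, was at 145, 158 and 141 CPM on dpi 2 and 335, 391 and 318 CPM on dpi 10 (1.23, SE 0.119, adjusted p = 1.14e-06). Ctss, the cysteine protease cathepsin S of antigen-presenting cells, was at 384, 404 and 314 and 1073, 1283 and 1066 CPM (1.64, adjusted p = 3.77e-05). Each dpi 10 library exceeded each dpi 2 library for both. Lamp1, whose promoter is shown above, had a log2 fold change of 0.63 (adjusted p = 7.58e-05). Not every member moved, since 17 of the 38 did not pass the test. A summed level of 20130 to 25250 CPM on dpi 10 compared with 13440 to 14780 CPM on dpi 2 and a median of 8025 CPM in naive cord.

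Cholesterol synthesis and cholesterol export moved in opposite directions. All 26 tested members of the synthesis list had a log2 fold change below 0 (-1.25 to -0.14, median -0.69) and 16 were downregulated, 5 of them past 1. Fdps, which makes farnesyl pyrophosphate, was at 19.8, 18.4 and 21.1 CPM on dpi 2 and 8.90, 7.01 and 8.95 CPM on dpi 10 (-1.26, SE 0.215, adjusted p = 6.90e-04). Sqle, the squalene epoxidase, was at 99.5, 92.4 and 91.6 and 45.2, 42.3 and 46.8 CPM (-1.08, adjusted p = 6.39e-04). The dpi 2 and dpi 10 libraries of both genes did not overlap, and for Sqle the dpi 2 levels were nearer to the naive level of 108 ± 2.86 CPM than the dpi 10 levels were. Mvk and Mvd, shown above with CCAAT sites, had log2 fold changes of -1.04 (adjusted p = 1.45e-04) and -0.99 (adjusted p = 6.67e-05). In sum the list went from 1916 to 2029 CPM on dpi 2 to 1176 to 1247 CPM on dpi 10.

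Of the 22 tested genes of lipid efflux and targets of the sterol receptor LXR, 12 were upregulated, 7 of them past 1, with a median of 0.63. Apoe, the main lipid carrier protein of the nervous system, was at 1709, 1956 and 1927 CPM on dpi 2 and 17074, 19652 and 15740.0 CPM on dpi 10 (3.23, SE 0.470, adjusted p = 1.44e-04). Its dpi 2 libraries were near the naive level of 1820.0 ± 14.3 CPM, and all dpi 10 libraries were far above. Apoc1 and Apoc4 of the same gene cluster had the values given above (4.55 and 4.40). The summed level of the list was 5947 to 5983 CPM on dpi 2 and 20130 to 24600 CPM on dpi 10, of which Apoe alone took the larger part.

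Markers of blood-borne myeloid cells differed among themselves. Of 24 tested members of the infiltrating monocyte and inflammatory macrophage list, 3 were downregulated (median -0.54) and the 12 total RNA libraries alone gave 9. These were Arg1, Chil3 and Msr1, a scavenger receptor of macrophages at 87.3, 113 and 98.8 CPM on dpi 2 and 23.4, 33.3 and 20.8 CPM on dpi 10 (-1.95, adjusted p = 0.00130). Chil3 lost its call without any single library, as given above with Arg1. The dpi 10 libraries of Msr1 lay below all dpi 2 libraries and above the naive libraries, which were at 0. Of 22 neutrophil markers 1 was upregulated, Csf3r, the receptor for granulocyte colony-stimulating factor, at 19.3, 20.3 and 19.1 and 56.6, 72.2 and 63.6 CPM (1.71, adjusted p = 0.00909). That 1 of 22 (4.55%) was near the share of all genes that were higher (3.31%). The neutrophil markers S100a8 (7.70, 10.8 and 6.56 and 8.25, 9.02 and 8.83 CPM) and Lcn2 (57.1, 84.4 and 68.6 and 38.2, 30.1 and 38.8 CPM) had log2 fold changes of 0.06 and -0.97 (adjusted p = 1.00 and 0.504). Overlapping libraries of S100a8 contrast with Lcn2, whose dpi 10 libraries were all lower although the test was not passed. The list median was -0.36, and the 12 total RNA libraries alone gave 2 members higher and 0 lower. In sum the neutrophil list was at 135 to 186 CPM on dpi 2 and 138 to 171 CPM on dpi 10. That sum adds members of opposite sign, such as Csf3r and Lcn2, so it does not measure the number of neutrophils.

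In the homeostatic microglia list 5 of 18 tested members were upregulated, 2 of them past 1 (median 0.57). Tgfbr1, a receptor for transforming growth factor beta that microglia need, was at 42.7, 32.2 and 33.8 CPM on dpi 2 and 102, 121 and 90.8 CPM on dpi 10 (1.53, SE 0.185, adjusted p = 1.98e-05). Csf1r, the receptor for the survival factor CSF1, had 1.00 (adjusted p = 0.00692). P2ry12, the ADP receptor of surveying microglia, was at 24.3, 24.2 and 29.8 and 41.1, 47.03 and 40.5 CPM (0.72, adjusted p = 0.0230), without overlap. That call was lost without library 1 or 2 of dpi 2 (0.0857 and 0.108) and without library 1 or 2 of dpi 10 (0.0564 and 0.106). Tmem119, another microglial surface protein, overlapped between the time points (60.3, 62.9 and 56.5 and 73.4, 76.03 and 61.1 CPM, adjusted p = 0.762). The count of 5 became 3 without library 1 or 2 of dpi 2 or library 2 of dpi 10, and it was 10 with 1 lower gene in the 12 total RNA libraries alone.

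Few genes of antigen presentation passed the test. Of 20 members of the MHC class II and dendritic cell list 3 were upregulated, all past 1 (median 1.12). Cd74, the invariant chain of MHC class II, was at 59.1, 45.3 and 33.1 CPM on dpi 2 and 117, 135 and 128 CPM on dpi 10 (1.47, SE 0.349, adjusted p = 0.0101, 0.0620 without library 3 of dpi 2). The MHC class II chains H2-Aa and H2-Eb1 had 1.57 and 1.64 (adjusted p = 0.0219 and 0.0185), and both lost the call without any single library other than library 1 of dpi 2 (0.0534 to 0.113 and 0.0532 to 0.0889). No library of dpi 10 overlapped those of dpi 2 for the 3 genes. The list count was 1 without library 2 of dpi 2 or any library of dpi 10 and 0 without library 3 of dpi 2, and 7 in the 12 total RNA libraries alone. Lymphocyte genes were sparse. None of 29 T and NK cell markers passed in edgeR (3 at an unadjusted p under 0.05, 1 higher by the DESeq2 Wald test and 2 in the 12 total RNA libraries alone), while their summed level was 7.42 to 9.76 CPM on dpi 2 and 23.4 to 31.3 CPM on dpi 10. Cd28, the costimulatory receptor of T cells, was at 0.840, 0.838 and 0.635 and 6.79, 7.55 and 5.91 CPM (adjusted p = 0.205) and the cytokine receptor Il7r at 3.72, 2.12 and 1.60 and 4.92, 8.19 and 4.96 CPM (adjusted p = 0.556). Of 17 B and plasma cell markers none passed in edgeR or DESeq2 (3 at an unadjusted p under 0.05), and 1 was higher and 1 lower in the 12 total RNA libraries alone. The members with the highest levels, Ebf1 and Xbp1, are also used by other cells and had 0.22 and -0.48 (adjusted p = 0.789 and 0.183).

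Interferon-stimulated genes had a median of 0.92, with 34 of 35 members above 0, but 5 were upregulated. Irf7, a transcription factor of the interferon response, was at 21.7, 11.1 and 8.28 CPM on dpi 2 and 20.97, 37.4 and 33.7 CPM on dpi 10 (1.17, SE 0.295, adjusted p = 0.0154). Its groups overlapped, since library 1 of dpi 2 was above library 1 of dpi 10. Stat2, a signal transducer of interferon receptors, had 0.69 (adjusted p = 0.0382). The adjusted p of Irf7 was 0.0964 and 0.0875 without library 2 or 3 of dpi 2 and 0.0894 and 0.0614 without library 2 or 3 of dpi 10. Stat2 lost its call without library 2 or 3 of dpi 2 (0.0931 and 0.192) and library 2 or 3 of dpi 10 (0.144 and 0.115). The list count was 0 without library 2 or 3 of dpi 2 or library 2 of dpi 10, 3 and 2 without libraries 1 and 3 of dpi 10, and 21 in the 12 total RNA libraries alone.

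Of 22 tested complement genes, 4 were upregulated, all past 1 (median 0.89), and the 12 total RNA libraries alone gave 11 higher and 2 lower. C1qa, a chain of the initiating C1q complex, was at 387, 542 and 405 CPM on dpi 2 and 939, 1141 and 912 CPM on dpi 10 (1.17, SE 0.213, adjusted p = 0.00123). C1qc, its partner, had 1.14 (adjusted p = 0.00284). C3, the central component, was at 57.8, 49.1 and 59.8 and 338, 335 and 308 CPM (2.56, adjusted p = 0.0215), with naive cord at 66.3 ± 19.5 CPM. These genes separated the time points, and C3 on dpi 2 was near its naive level while C1qa on dpi 2 was above it (49.1 ± 10.2 CPM). The adjusted p of C3 was 0.0529 to 0.101 without any single library other than library 3 of dpi 10.

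Secreted signals of inflammation were mixed. Among 27 tested chemokines and receptors 2 rose and 2 fell, and 6 were higher and 5 lower in the 12 total RNA libraries alone. Cxcl16, a ligand that also acts as a scavenger receptor, was at 20.2, 22.4 and 14.1 CPM on dpi 2 and 60.3, 76.2 and 51.6 CPM on dpi 10 (1.73, adjusted p = 0.00280). Cxcr4, the receptor of CXCL12, had 1.55 (adjusted p = 0.0193), while the macrophage chemokines Ccl9 and Ccl6 fell by 2.04 and 1.69 on the log2 scale (adjusted p = 0.0142 and 0.0445). Of these, Cxcl16 alone kept its call without each single library. Cxcr4 lost it without library 2 or 3 of dpi 2 (0.0631 and 0.101) or of dpi 10 (0.0778 and 0.0522), Ccl9 without library 2 of dpi 2 (0.120) or library 1 or 3 of dpi 10 (0.0795 and 0.0614), and Ccl6 without any library other than library 3 of dpi 2 (0.0843 to 0.252). None of the list was lower without library 2 of dpi 2 or library 1 or 3 of dpi 10. Of 23 acute cytokines and receptors 3 were downregulated, and 8 were lower and 3 higher in the 12 total RNA libraries alone. Socs3, the feedback inhibitor of cytokine signalling through STAT3, was at 44.7, 67.7 and 37.4 and 14.3, 13.96 and 12.4 CPM (-1.88, SE 0.413, adjusted p = 0.00532), and Il11, a cytokine of the interleukin 6 family, at 5.35, 11.5 and 3.02 and 0.682, 0.692 and 0.660 CPM (-3.28, adjusted p = 0.00503). Neither gene overlapped between the groups. Tnfrsf12a, the receptor of the cytokine TWEAK, had -1.29 (adjusted p = 0.0499, 0.0829 to 0.196 without any single library).

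The coagulation and fibrinolysis list had 2 of 21 members up and 2 down (median -0.62), and 3 up and 9 down in the 12 total RNA libraries alone. None was up without library 1 or 2 of dpi 2 or library 2 of dpi 10. Plau, the plasminogen activator urokinase, was at 18.8, 19.1 and 16.7 CPM on dpi 2 and 35.2, 49.4 and 45.2 CPM on dpi 10 (1.25, SE 0.336, adjusted p = 0.0231). All its dpi 10 libraries were above all its dpi 2 libraries. Anxa2, which binds plasminogen at the cell surface, had -1.07 and Gas6, a ligand of phagocytic receptors, 0.71 (adjusted p = 0.0124 and 0.0207). Plau lost its call without any library other than library 1 of dpi 10 (0.0642 to 0.102), Anxa2 without library 2 of dpi 2 (0.0931) or library 1 or 3 of dpi 10 (0.0510 and 0.0580), and Gas6 without library 1 or 2 of dpi 2 (0.0599 and 0.0966) or library 2 of dpi 10 (0.0908).

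Collagen chains of scar and vessel walls were upregulated in 9 of 24 cases, all past 1, with a median of 1.38. Col1a1, the main chain of fibrillar collagen I, was at 170.1, 198 and 93.5 CPM on dpi 2, 793, 899 and 823 CPM on dpi 10 (2.45, SE 0.340, adjusted p = 9.18e-05) and 8.54 ± 2.28 CPM in naive cord. Col15a1, a collagen of basement membranes, was at 10.3, 11.6 and 9.67 and 47.2, 48.8 and 44.8 CPM (2.16, adjusted p = 1.36e-04). Col3a1, which forms mixed fibrils with collagen I, had 2.05 (adjusted p = 0.0176, but 0.0567 and 0.0896 without library 1 or 3 of dpi 2 and 0.0576 without library 2 of dpi 10). All dpi 10 libraries were above all dpi 2 libraries for these chains, and library 3 of dpi 2 was the lowest for each. The 12 total RNA libraries alone gave 15 chains higher and 2 lower. Of 24 tested markers of fibroblasts and meninges 1 was upregulated, Postn, the matrix protein periostin (14.7, 13.7 and 8.16 and 34.3, 33.6 and 26.3 CPM, 1.37, adjusted p = 0.0385, 0.0597 to 0.165 without any single library). That 1 was 4.17% of the list, near the 3.31% of all genes that were higher. The 12 total RNA libraries alone gave 9 of these markers higher and 2 lower. The summed level of that list was 1292 to 1857 CPM on dpi 2, lowest in library 3, and 1736 to 1795 CPM on dpi 10, so the ranges overlapped. Its member Dcn, the proteoglycan decorin, was at 189, 244 and 110.3 and 202, 196 and 196 CPM (adjusted p = 0.929), and Lrp1, a lipoprotein receptor of many cells, at 442, 436 and 517 and 531, 597 and 533 CPM (adjusted p = 0.885). The part of such tissue in the collagen levels was not tested.

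Of 43 matrix glycoproteins and proteoglycans 3 were upregulated (median 0.33), and 12 were higher and 6 lower in the 12 total RNA libraries alone. Fmod, the collagen-binding fibromodulin, was at 19.3, 17.1 and 14.5 CPM on dpi 2 and 171, 179.7 and 204 CPM on dpi 10 (3.44, SE 0.612, adjusted p = 9.74e-04). Lama2, a laminin chain of basement membranes, was at 6.49, 8.05 and 3.20 and 23.5, 17.2 and 17.03 CPM (1.70, adjusted p = 0.00625), and Tnr, a glycoprotein of OLs and perineuronal nets, at 86.98, 67.9 and 88.3 and 155, 173 and 142 CPM (0.95, adjusted p = 0.00181). The time points were separate for all of them. Matrix proteases and inhibitors gave 7 of 30 up, 5 of them past 1, and 2 down. Besides Mmp12, Mmp3 (stromelysin 1) and Mmp23 rose by 3.69 and 2.50 (adjusted p = 0.0301 and 0.0170). Timp1, an inhibitor of metalloproteinases, was at 152, 198 and 133 and 36.4, 37.1 and 34.4 CPM (-2.16, SE 0.505, adjusted p = 0.00878), and Adamts1, a protease of proteoglycans, had -0.97 (adjusted p = 0.0273). Mmp3 lost its call without any single library (0.0678 to 0.118). Mmp23 lost it without library 1, 2 or 3 of dpi 2 (0.0505, 0.0649 and 0.0764) or library 3 of dpi 10 (0.0620), and Adamts1 without library 2 of dpi 2 (0.176) or library 1, 2 or 3 of dpi 10 (0.0735, 0.0908 and 0.102). The count of 7 was 4 without library 2 or 3 of dpi 2 or library 3 of dpi 10.

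Protein folding genes were lower on dpi 10. Of 28 tested heat shock and ER chaperones 12 were downregulated, 3 of them past 1, and 1 of the 28 had a log2 fold change above 0 (median -0.43). Creld2, an ER protein with the stress element shown above, was at 52.4, 46.6 and 49.4 CPM on dpi 2 and 20.1, 23.7 and 19.4 CPM on dpi 10 (-1.23, SE 0.158, adjusted p = 3.94e-05). Sdf2l1, a partner of ER chaperones, was at 59.7, 64.5 and 42.9 and 23.7, 34.4 and 24.7 CPM (-1.01, adjusted p = 0.00562), and Hspb1, the small heat shock protein Hsp27, at 249, 433 and 291 and 66.8, 63.9 and 61.9 CPM (-2.34, adjusted p = 0.0161). For these genes the dpi 10 libraries were lower without overlap. Hspb1 lost its call without library 2 of dpi 2 (0.0736) and without library 1, 2 or 3 of dpi 10 (0.0649, 0.0684 and 0.0687). Canx had a log2 fold change of -0.33 (adjusted p = 0.00744), the smaller of the changes of the 2 genes shown with the element.

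Oxidant defence followed a similar course. Of 24 members of the NRF2 and metallothionein list 8 were downregulated and 1 was upregulated (median -0.46), and the 12 total RNA libraries alone gave 13 and 1. Besides Hmox1, Srxn1, which repairs overoxidised peroxiredoxins, was at 309, 282 and 289 CPM on dpi 2 and 149, 172 and 153 CPM on dpi 10 (-0.89, SE 0.103, adjusted p = 1.08e-05). Txnrd1, the cytosolic thioredoxin reductase, was at 155, 144 and 125 and 86.2, 94.5 and 76.5 CPM (-0.72, adjusted p = 2.63e-04). Nqo1, a quinone reductase, was the member that rose (9.32, 7.60 and 9.64 and 16.02, 15.6 and 13.8 CPM, 0.77, adjusted p = 0.00393). None of these genes overlapped between the time points. The count of 8 was 5 without library 2 or 3 of dpi 10.

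Other stress and stimulus genes gave few calls. Of 29 immediate early and AP-1 genes 3 were downregulated (median -0.30), namely the AP-1 subunit Fosl1 (12.6, 13.1 and 12.00 and 1.33, 2.05 and 2.27 CPM, -2.73, adjusted p = 0.0329), Fos (-0.94, 0.0114) and the growth regulator Myc (-0.85, 0.0235). All dpi 10 libraries of the 3 were below those of dpi 2. Fosl1 lost its call without any single library (0.0659 to 0.142), Fos without library 1 of dpi 10 (0.0791), and Myc without library 2 or 3 of dpi 2 (0.0909 and 0.0615) or library 1 or 3 of dpi 10 (0.0624 and 0.126). Of 29 genes of the ATF4 integrated stress response 4 were downregulated (median -0.27). Atf5, a transcription factor, was at 94.3, 120.2 and 90.4 and 61.4, 73.96 and 65.3 CPM (-0.60, adjusted p = 0.00992), Atf4 itself had -0.51 (0.0149) and Shmt2, a mitochondrial enzyme of one-carbon metabolism, -0.55 (0.0161). Atf5 lost its call without library 2 of dpi 2 (0.0890) or library 1 of dpi 10 (0.0623), Atf4 without library 1 or 2 of dpi 2 (0.0523 and 0.0714) or of dpi 10 (0.0695 and 0.0630), and Shmt2 without library 3 of dpi 2 (0.0748) or library 1, 2 or 3 of dpi 10 (0.0568, 0.0571 and 0.0580). The AP-1 count of 3 was 1 without library 2 of dpi 2 or library 3 of dpi 10 and 0 without library 1 of dpi 10, and the ATF4 count of 4 was 0 without library 1 of dpi 10 and 1 or 2 without any other library. In the 12 total RNA libraries alone 12 AP-1 list members were lower and 3 higher, and 9 ATF4 list members were lower. Of 32 hypoxia and glycolysis genes 1 rose and 1 fell (median -0.15), a share no larger than that of all genes (3.31% and 4.53%), with 4 and 11 in the 12 total RNA libraries alone. These were Ndrg1, a hypoxia target abundant in OLs (314, 302 and 253 and 490.0, 452 and 452 CPM, 0.68, adjusted p = 0.00209), and Slc2a1, the glucose carrier of the blood-brain barrier (145, 189 and 174 and 122, 114 and 116 CPM, -0.53, adjusted p = 0.00199). Of 23 p53 targets none passed in edgeR or DESeq2 (2 at an unadjusted p under 0.05), 2 were lower in the 12 total RNA libraries alone, and Ccng1 and Ei24 had -0.00 and -0.17 (adjusted p = 1.00 and 0.554).

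Ribosomal protein genes fell by small amounts over most of the list. All 53 tested members had a log2 fold change below 0 (-1.09 to -0.10, median -0.43), and 40 were downregulated. Rps2 was at 425, 549.7 and 452 CPM on dpi 2 and 228, 231 and 212 CPM on dpi 10 (-1.09, SE 0.0963, adjusted p = 3.96e-07). Rpsa, the laminin receptor protein of the small subunit, was at 527, 667 and 549 and 293, 306 and 309 CPM (-0.94, adjusted p = 4.74e-06), and Rps19 at 98.5, 144 and 97.3 and 61.8, 73.1 and 66.2 CPM (-0.76, adjusted p = 0.00168). Library 2 of dpi 2 was the highest for the 3 genes, and the time points did not overlap. The summed level of the list was 13240 and 13510 CPM in the other dpi 2 libraries, 16960 CPM in library 2, and 10390 to 10800 CPM on dpi 10. The count was 19 without library 2 of dpi 2 and 24 and 26 without libraries 1 and 2 of dpi 10. Ribosomal protein genes have many processed pseudogenes, and how reads shared with those copies were counted was not tested. Nuclear-encoded subunits of the respiratory chain were also all below 0 (49 of 49, median -0.25), but 4 passed the test and 20 did in the 12 total RNA libraries alone. Uqcrq of complex III, the electron carrier Cycs and Ndufa8 of complex I had -0.49, -0.41 and -0.41 (adjusted p = 0.0257, 0.0157 and 0.0182). Cycs lost its call without library 3 of dpi 2 (0.0691) or library 1 of dpi 10 (0.0778), Ndufa8 without library 2 or 3 of dpi 2 (0.102 and 0.0774) or library 1 or 2 of dpi 10 (0.101 and 0.0647), and Uqcrq without any library other than library 3 of dpi 2 (0.0616 to 0.124). The respiratory chain count was 0 without library 1 of dpi 10 and 1 without library 2 or 3 of dpi 2 or library 2 of dpi 10.

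**Figure D4:**
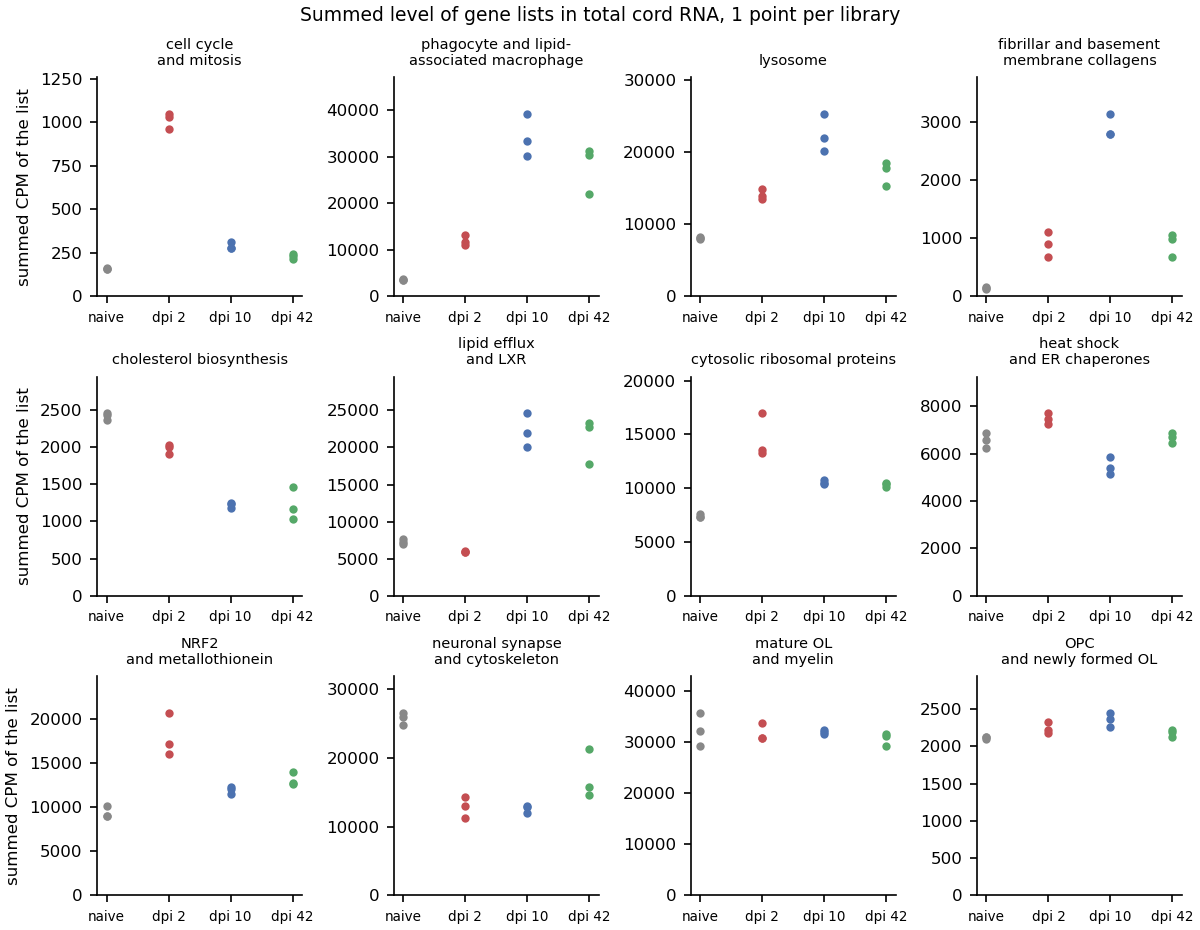
Each point is the summed CPM of a gene list in a total RNA library (3 per group, linear axes from 0) for naive cord and dpi 2, 10 and 42, where 1 dpi 42 library has conflicting labels. Cell cycle genes were at 959 to 1047 CPM on dpi 2 and at 276 to 308 CPM on dpi 10, and the phagocyte list at 10930 to 13210 and 30280 to 39260 CPM.

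Of 36 tested astrocyte reactivity genes 7 were downregulated, 6 of them past 1, and 1 was upregulated (median -0.74). In the 12 total RNA libraries alone 17 were lower and 5 higher. Tgm1, a transglutaminase, was at 76.5, 102 and 111 CPM on dpi 2 and 12.9, 9.26 and 8.17 CPM on dpi 10 (-3.25, SE 0.691, adjusted p = 0.00418), against 0.0656 ± 0.114 CPM in naive cord. The members that fell also included Timp1 and Hspb1, which other cell types use as well, and the member that rose was C3. Gfap, the intermediate filament of astrocytes, was at 4622, 4762 and 4296 CPM on dpi 2 and 4356, 4684 and 4213 CPM on dpi 10 (-0.05, adjusted p = 0.999), both above the naive 1572 ± 479 CPM. Of 26 identity genes 1 was upregulated, S100b, a calcium-binding protein (543, 638 and 601 and 758, 728 and 771 CPM, 0.34, adjusted p = 0.0407). That 1 was 3.85% of the list, near the 3.31% of all genes that were higher. The 12 total RNA libraries alone gave 13 identity genes higher and 2 lower. Aqp4, the water channel of astrocyte endfeet, was at 556, 488 and 573 and 1209.6, 1251 and 1117 CPM, higher on dpi 10 in every library, with 1.15 and an adjusted p of 0.422 (4.51e-07 in the 12 total RNA libraries alone). Aldh1l1, a folate enzyme, was lower in every dpi 10 library (107, 115 and 114 and 56.1, 59.3 and 56.6 CPM, adjusted p = 0.361, or 1.91e-07 in those 12 libraries). Hspb1 lost its call without library 2 of dpi 2 (0.0736) or library 1, 2 or 3 of dpi 10 (0.0649, 0.0684 and 0.0687), C3 without any library other than library 3 of dpi 10 (0.0529 to 0.101) and S100b without any other than library 2 of dpi 2 (0.0803 to 0.167).

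Neuronal genes showed no difference that passed the test between dpi 2 and dpi 10. None of 39 synapse and cytoskeleton genes and none of 27 transmitter genes was called in edgeR or DESeq2 (3 and 2 at an unadjusted p under 0.05), with medians of 0.13 and 0.08. The 12 total RNA libraries alone gave 6 synapse genes higher and 2 lower, and 2 transmitter genes higher and 3 lower. Summed, the synapse list was at 11200 to 14330 CPM on dpi 2 and 12050 to 13010 CPM on dpi 10, against a median of 26050 CPM in naive cord. Nefl, the light neurofilament chain, was at 1098, 1058 and 1219 CPM on dpi 2 and 1063, 1039 and 1073 CPM on dpi 10 (adjusted p = 0.904), and Rbfox3, the nuclear antigen of neurons, at 90.2, 67.4 and 100.0 and 94.4, 87.8 and 101 CPM (adjusted p = 0.763). The opioid precursor Penk likewise overlapped between the time points (-0.01, adjusted p = 1.00). Of 26 tested genes that injured neurons are known to raise, 6 were downregulated and 1 was upregulated (median -0.31), and the 12 total RNA libraries alone gave 10 and 5. Tubb6, a beta-tubulin, was at 83.5, 102 and 81.7 and 26.1, 26.9 and 25.1 CPM (-1.77, SE 0.387, adjusted p = 0.00512), and the members that fell included Socs3 and Hspb1, which are also on the cytokine and astrocyte reactivity lists. Stmn4, a stathmin of growing neurites, was higher (181, 182 and 164 and 267, 239.6 and 239 CPM, 0.50, adjusted p = 0.0214). Its call was lost without library 2 or 3 of dpi 2 (0.0566 and 0.0903) or library 1 of dpi 10 (0.101).

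Within the OL lineage, myelin genes moved in both directions. Of 31 mature OL and myelin genes 5 were upregulated and 4 downregulated (median 0.08), against 6 and 9 in the 12 total RNA libraries alone. Opalin, a membrane protein of myelinating OLs, and Tspan2, a tetraspanin of myelin, had 0.81 and 0.77 (adjusted p = 0.00426 and 2.67e-04). Apod, a lipid-binding apolipoprotein, was at 4305, 6502 and 5216 and 1724, 1637 and 1609 CPM (-1.69, SE 0.156, adjusted p = 6.92e-07), and Klk6, a protease of OLs, had -0.80 (adjusted p = 0.0481, 0.0718 to 0.170 without any single library). The dpi 2 levels of Apod lay above the naive level (856 ± 104 CPM), and the dpi 10 levels were nearer to it. Mbp and Mog, a surface antigen of myelin, had 0.24 and 0.08 (adjusted p = 0.289 and 0.784).

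Of 27 genes of OL progenitors and newly formed OLs 5 were upregulated and 1 was downregulated (median 0.10), and the 12 total RNA libraries alone gave 11 and 6. Gpr17, a receptor of committed progenitors, was at 69.6, 42.6 and 70.1 CPM on dpi 2 and 173, 187 and 142 CPM on dpi 10 (1.46, SE 0.327, adjusted p = 0.00640, 0.0550 without library 2 of dpi 2). Enpp6, a choline phosphodiesterase of newly forming OLs, was at 53.97, 44.8 and 47.7 and 90.5, 89.4 and 84.6 CPM (0.85, adjusted p = 0.00219). Sirt2, a deacetylase of the myelin sheath, had 0.75 (adjusted p = 7.24e-05), while Bcas1, a marker of early myelinating OLs, fell from 776, 857 and 880.3 to 496, 564 and 550.4 CPM (-0.64, adjusted p = 6.08e-04). Dpi 2 and dpi 10 libraries did not overlap for these 4 genes. Pdgfra, the growth factor receptor of progenitors, was at 92.4, 93.9 and 93.5 and 59.9, 62.2 and 64.5 CPM, lower on dpi 10 in every library, with an adjusted p of 0.365 (1.74e-04 in the 12 total RNA libraries alone).

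Vascular genes were called in small numbers. Of 33 endothelial and angiogenesis genes 3 were downregulated (median -0.60), Slc2a1 and the surface proteins Ly6a and Ly6c1 (-1.36 and -1.21, adjusted p = 0.0388 and 0.0240). Cldn5, the tight junction protein of the barrier, was at 45.5, 66.2 and 73.5 CPM on dpi 2 and 30.8, 42.8 and 47.1 CPM on dpi 10, with overlap (adjusted p = 0.500). The 12 total RNA libraries alone gave 15 lower and 5 higher, and the count was 1 without library 2 or 3 of dpi 2 or any library of dpi 10. Ly6a lost its call without any library other than library 1 of dpi 2 (0.0627 to 0.238), and Ly6c1 likewise (0.0633 to 0.128). Among 18 genes of pericytes and smooth muscle, Anpep, an aminopeptidase also found on macrophages, was at 22.5, 22.1 and 14.1 and 81.1, 115 and 78.00 CPM (2.22, SE 0.427, adjusted p = 0.00187), and Vtn, the adhesive protein vitronectin, at 49.3, 68.8 and 42.99 and 162, 180.4 and 187 CPM (1.71, adjusted p = 0.00214). Tagln, an actin-binding protein of contractile cells, was lower (144, 179.7 and 143 and 30.6, 27.8 and 30.6 CPM, -2.39, adjusted p = 0.0137, but 0.0589, 0.0655 and 0.0562 without library 1, 2 or 3 of dpi 10). These 3 genes separated the time points, and they were the members of their list that passed.

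Ependymal genes, from the cells that line the central canal, had 24 of 25 members above 0 (median 0.97), and 3 were upregulated. Foxj1, the master regulator of motile cilia, was at 25.7, 18.1 and 26.5 CPM on dpi 2 and 38.7, 45.4 and 38.9 CPM on dpi 10 (0.81, SE 0.161, adjusted p = 0.00253). Pltp, a phospholipid transfer protein that other cells also make, had 2.03 (adjusted p = 0.0124), and Mia, a small secreted protein, 3.27 (0.04995, 0.0783 to 0.163 without any single library). Foxj1 and Pltp on dpi 10 exceeded dpi 2 in every library. Pltp lost its call without library 1 or 2 of dpi 2 (0.0576 and 0.0543), the list count was then 1, and the 12 total RNA libraries alone gave 9. Of 21 Schwann cell and nerve root genes 1 was upregulated (4.76%, near the 3.31% of all genes). Mal, a membrane proteolipid of both myelins, had 0.14 (adjusted p = 0.530). Of 10 red blood cell genes none passed in edgeR or DESeq2 (1 at an unadjusted p under 0.05), 2 were lower in the 12 total RNA libraries alone, and the members with the highest levels, Fech and Bpgm, had 0.07 and -0.34 (adjusted p = 0.846 and 0.0914). Of 20 genes of muscle, fat and bone Col2a1 alone passed (23.3, 24.02 and 22.8 and 4.06, 3.83 and 3.90 CPM, adjusted p = 5.24e-08). That 1 was 5% of the list, near the 4.53% of all genes that were lower. Pvalb and Acan, which spinal neurons and their nets also use, had -0.15 and 0.28 (adjusted p = 0.913 and 0.859).

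The same pools were read in the OL libraries, and the difference between the change in OLs and the change in total RNA was tested directly. Of 17167 genes, 164 (0.955%) differed past 1 at an adjusted p under 0.05, 110 with a higher and 54 with a lower change in OLs. Without a limit on size, 1.24% of genes were higher and 0.903% lower in OLs. The count of 164 was 88 to 99 without any single total RNA library other than library 2 of dpi 2, and 284 without library 3 of dpi 2 in OLs. Cell cycle genes were prominent among the former, with 11 of 47 higher in OLs and a list median of -0.38 there against -2.25 in total RNA. Ube2c was at 2.04, 4.01 and 6.01 CPM in OLs on dpi 2 and 3.07, 4.19 and 5.37 CPM on dpi 10, a log2 fold change of 0.07 against -2.84 in total RNA (difference 2.91, adjusted p = 0.0181). Ncapd2 was at 24.6, 22.2 and 18.5 and 18.8, 21.99 and 19.9 CPM in OLs, -0.11 against -1.57 (1.46, adjusted p = 4.70e-04). Ube2c lost this call without total RNA library 1 or 3 of dpi 10 (0.0537 and 0.0551). The time points overlapped in OLs for both genes. The cell cycle count of 11 was 5 and 6 without total RNA libraries 1 and 3 of dpi 10, 7 without total RNA library 2 of dpi 10 or library 1 or 3 of dpi 2, 17 without library 3 of dpi 2 in OLs and 8 to 11 without any other OL library.

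Ribosomal protein genes differed the other way, with 34 of 53 lower in OLs and a list median of -1.15 in OLs against -0.43 in total RNA. That count was 46 without total RNA library 2 of dpi 2, 26 to 31 without any other total RNA library, 19 and 20 without OL libraries 2 and 1 of dpi 10, and 24 to 31 without the remaining OL libraries. Hexa rose in total RNA and was at 124, 138 and 145 CPM on dpi 2 and 127, 162 and 157 CPM on dpi 10 in OLs (0.13, difference -1.10, adjusted p = 0.00115). That difference was within log2 1 without OL library 3 of dpi 2 (-0.96) or library 1 of dpi 10 (-0.91), with adjusted p of 0.00509 and 0.0130. Il11 and Adamts1 fell in total RNA and had 0.50 and 0.76 in OLs (differences 3.78 and 1.73, adjusted p = 0.0428 and 0.0182). Il11 lost this call without total RNA library 1 or 2 of dpi 2 (0.0700 and 0.117), library 1, 2 or 3 of dpi 10 (0.100, 0.104 and 0.105), or OL library 2 of dpi 2 (0.0803) and 2 or 3 of dpi 10 (0.0809 and 0.0652), and Adamts1 without total RNA library 2 or 3 of dpi 10 (0.0511 and 0.0544). For the other named genes the difference was within log2 1 or did not pass the test, and Apoe, for example, had 1.86 in OLs against 3.23 in total RNA (adjusted p of the difference 0.318). The OL libraries also held RNA of the phagocyte list, whose median log2 fold change was 1.27 there and 1.30 in total RNA, so a level in them is that of the pull-down and not of OLs alone, and the part of other cells was not tested. The OL libraries were from the same pools as the total RNA libraries, so they are not independent animals.

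**Figure D5:**
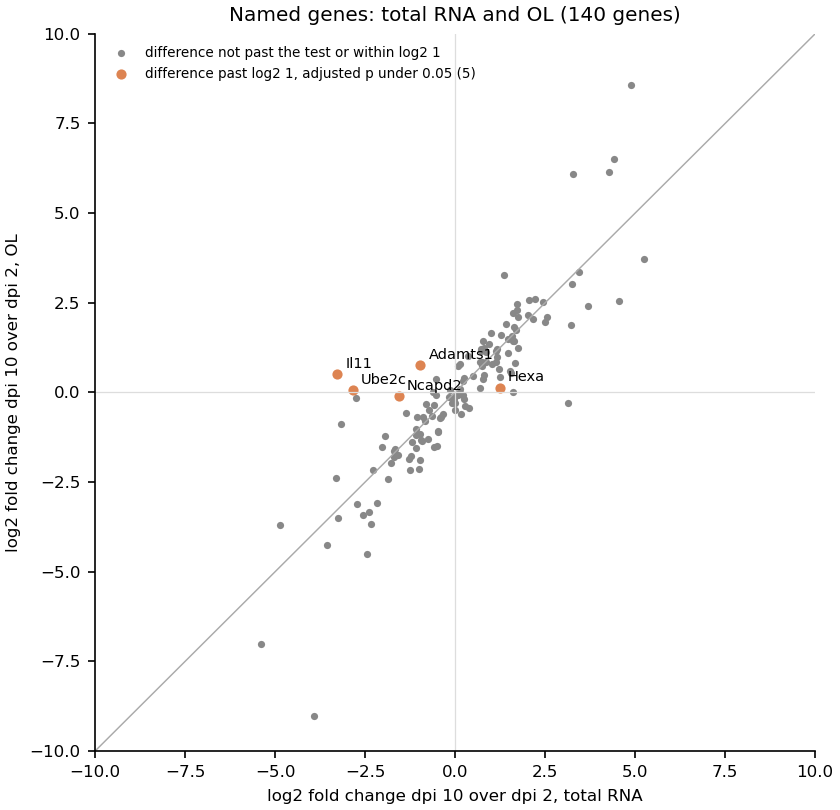
The log2 fold change of dpi 10 over dpi 2 in total RNA (horizontal) is set against that in OLs (vertical) for 140 named genes, with the grey diagonal marking equal change. The 5 orange genes, Il11, Ube2c, Ncapd2, Adamts1 and Hexa, differed past log2 1 at an adjusted p under 0.05.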

How the data were processed

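Total and OL RNA libraries of mouse spinal cord were sequenced, 3 per group in 8 groups. The lysate was cleared by centrifugation before total RNA was taken. The authors aligned reads with STAR to GRCm38.p6 and deposited whole-number counts per gene from HTSeq 0.10.0, with FastQC 0.10.1 for quality per the submitters' notes. Genes whose counts over the 24 libraries reached 10 in sum were fitted with edgeR 4.0.16 (R 4.3.3, limma 3.58.1), TMM scaling and the quasi-likelihood test in 1 model of all 8 groups, with Benjamini-Hochberg adjustment over all genes tested. CPM values use the same scaling. The 3-count floor and all p-values cover the spread or counting error of these libraries only. The script was tested on simulated data.

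Named genes were, in each direction, the 6 with the smallest p whose libraries did not overlap, the 4 with the largest change at 5 CPM or more, and up to 3 called members of each of 42 lists at 1 CPM or more. For lists with fewer than 2 calls the 2 members with the highest level were named, and the tissue markers Snap25, Rbfox3, Chat, Aqp4, Aldh1l1, Mbp, Mog, Pdgfra, Tmem119, P2ry12, S100a8, Ly6g and Cldn5 were added. The members and lists were chosen with earlier results of these data known. Alternatives were DESeq2 1.42.0, other scalings and filters, other sets of libraries, a replicate block and leaving out each library. OL and total RNA came from the same pool, so same-numbered libraries were checked for shared deviations, with r of 0.151, 0.164 and 0.171 on dpi 2 and 0.138, 0.0437 and 0.0708 on dpi 10. Promoter sequences are those of RefSeq. Some genes that this rule names are not reported here.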

Additional observations from a re-analysis of the deposited data

Results flagged for a closer look

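For 5 named genes the change from dpi 2 to dpi 10 differed between OLs and total RNA by the edgeR test of the difference itself, past log2 1. The log2 change in OLs minus that in total RNA was 3.785 for Il11 (adjusted p = 0.0428, and 0.139 with the replicate block by tissue pool), 2.911 for Ube2c (0.0181), 1.73 for Adamts1 (0.0182), 1.464 for Ncapd2 (4.70e-04) and -1.099 for Hexa (0.00115). Ncapd2 kept its call without any single library. Hexa kept an adjusted p under 0.05 without each, but its difference was within log2 1 without OL library 3 of dpi 2 (-0.96) or OL library 1 of dpi 10 (-0.91).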

How the results depend on the processing

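With the 12 total RNA libraries alone 503 genes were upregulated and 397 downregulated past log2 1, and 1695 were higher and 1903 lower at any size. With the 6 compared libraries alone these were 474, 441, 1542 and 1827. With the replicate block in the 12 libraries they were 480, 379, 1666 and 1819, where same-numbered total RNA libraries of dpi 2 and dpi 10 share only a number (r of deviations 0.114, 0.00347 and 0.071). DESeq2 gave 899 genes higher and 278 that differed between OLs and total RNA. Leaving out 1 library at a time gave 128 to 173 upregulated and 110 to 155 downregulated past 1, 323 to 493 higher and 472 to 673 lower, and 88 to 284 that differed between OLs and total RNA. The cause of these shifts was not tested. None of the 108 named genes that passed the test changed sign under these alternatives, while 7 of the 34 that did not pass did, Dcn, Rbfox3, S100a8, Snap25 and Penk among them. The alternatives reuse the same libraries, so a kept sign largely follows from passing the test and is no further support. The balance of 184 up and 166 down turned to 165 and 189 with library sizes alone. It also turned with a total RNA library as TMM reference (174 and 177) and without the dpi 42 libraries (190 and 202). The same held without total RNA library 3 of dpi 2 (134 and 155) or library 2 of dpi 10 (128 and 130). The other settings kept more genes up than down. With 3 pools a group, small changes of low genes could not be detected at this depth.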
